A study of Arabidopsis thaliana with 12 samples.

Results

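NdhS and CRR21 are nuclear genes of Arabidopsis thaliana that both serve the chloroplast NADH dehydrogenase-like complex (NDH), and their transcripts were followed in plants of 2 ages. Each was taken as the probe that lists it as its only gene in the array's annotation table, which gave 2 genes with 1 probe each, out of 692 probes with a single gene and 3439 probes in all. NdhS is AT4G23890 on chromosome 4 and CRR21 is AT5G55740 on chromosome 5. The pair was selected on its intensities in these same samples, with the difference between the ages already known, so it is given for them as a description, with no test.

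Total RNA came from wild-type plants of the ecotype Columbia 0, a common laboratory strain. There were 6 samples of plants labelled 4 weeks old and 6 of plants labelled 2 weeks old, numbered 1 to 6 within each age. All samples share the genotype and no treatment is named. The labels give neither the organ nor the growth conditions, and whether same-age samples are different plants or repeats of 1 extract is unstated, so p-values measure a spread between samples that may be technical. None of 31 organ and cell type marker loci had a single-gene probe, so the tissue could not be checked. In bulk RNA, fewer cells of a type and less RNA per cell cannot be told apart.

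NDH lies in the thylakoid membrane, takes electrons from reduced ferredoxin and passes them to plastoquinone, and so returns electrons to the chain around photosystem I. Some of its subunits are encoded in the chloroplast and others, NdhS among them, in the nucleus. NdhS carries an SH3-like fold and sits at the part of the complex that binds ferredoxin. CRR21 is not a subunit. It is a pentatricopeptide repeat protein, of the family that binds organelle RNA, and it is needed to edit a site in the chloroplast ndhD transcript, which encodes a membrane subunit. Mutants of either gene lack normal NDH activity, which is what the name chlororespiratory reduction records.

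Both transcripts had higher deposited intensities at 4 weeks than at 2 weeks in each of the 6 replicate numbers, and each gene also stood at a higher position on the array at 4 weeks. Relative to the median of the positive probes, CRR21 was still higher at 4 weeks but NdhS was lower, so a direction for NdhS holds only for a stated scaling. The deposited intensity runs from 0 to 100 in each sample on a linear scale, and its scaling is not described in the sources used here.

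The deposited intensity of NdhS at 4 weeks was 2.88, 2.91, 3.23, 3.51, 2.80 and 2.72 in samples 1 to 6. At 2 weeks it was 1.70, 1.77, 1.90, 2.11, 1.5 and 1.56. The lowest sample at 4 weeks therefore lay above the highest at 2 weeks, and samples 3 and 4 were the highest of either age. The means were 3.01 ± 0.299 at 4 weeks and 1.76 ± 0.225 at 2 weeks (SD, n = 6 each).

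The deposited intensity of CRR21 at 4 weeks was 0.887, 0.953, 0.818, 0.807, 1.42 and 1.24 in samples 1 to 6. At 2 weeks it was 0.192, 0.207, 0.215, 0.203, 0.217 and 0.242. The ages did not overlap, the samples at 2 weeks lay close together, and samples 5 and 6 stood above the other 4 at 4 weeks. The means were 1.02 ± 0.251 at 4 weeks and 0.213 ± 0.0171 at 2 weeks (SD, n = 6 each). The coefficient of variation was 24.6% at 4 weeks and 8.02% at 2 weeks for CRR21, and 9.94% and 12.8% for NdhS.

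**Figure D1:**
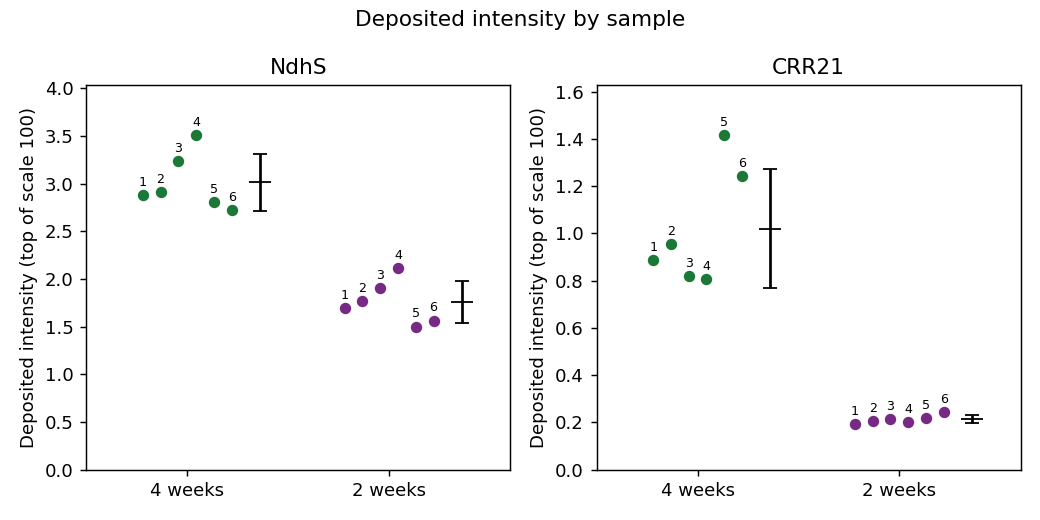
Deposited intensity (linear, top of scale 100) of NdhS and CRR21 in each sample, 4 weeks on the left and 2 weeks on the right of each panel; points carry the replicate number, and the bar is the mean ± SD of 6 samples. NdhS lies between 2.72 and 3.51 at 4 weeks and between 1.5 and 2.11 at 2 weeks, and CRR21 between 0.807 and 1.42 at 4 weeks and between 0.192 and 0.242 at 2 weeks.

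Absence of overlap in the deposited values is common on these arrays. Of 2966 probes and genes above a floor of low values in the deposited table, 65.6% lay higher in all samples at 4 weeks than in any at 2 weeks, so the lack of overlap for NdhS and CRR21 is shared with most features. The array median was 0.412 ± 0.024 at 4 weeks and 0.108 ± 0.00931 at 2 weeks (SD, n = 6 each). As multiples of that median, taken over all probes, NdhS stood at 7.34 ± 0.989 at 4 weeks and 16.4 ± 2.08 at 2 weeks, with no overlap and in the opposite order to its deposited intensity. CRR21 stood at 2.49 ± 0.666 at 4 weeks and 1.98 ± 0.14 at 2 weeks, and here the ages overlapped, with the 4-week sample higher in 5 of 6 replicate numbers.

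The position of a gene among the 3439 probes of its own array does not change when the array is multiplied by 1 factor. NdhS was among the bright probes at both ages, at percentile 96.7 ± 0.553 at 4 weeks and 95.0 ± 0.711 at 2 weeks (SD, n = 6 each). Its lowest percentile at 4 weeks was 96.1 and its highest at 2 weeks 96.0, so the ages did not overlap but the gap between them was narrow. CRR21 held percentile 82.1 ± 5.02 at 4 weeks and 67.6 ± 1.54 at 2 weeks, and its ranges, 78.0 to 89.7 at 4 weeks and 65.2 to 69.6 at 2 weeks, were well apart.

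**Figure D2:**
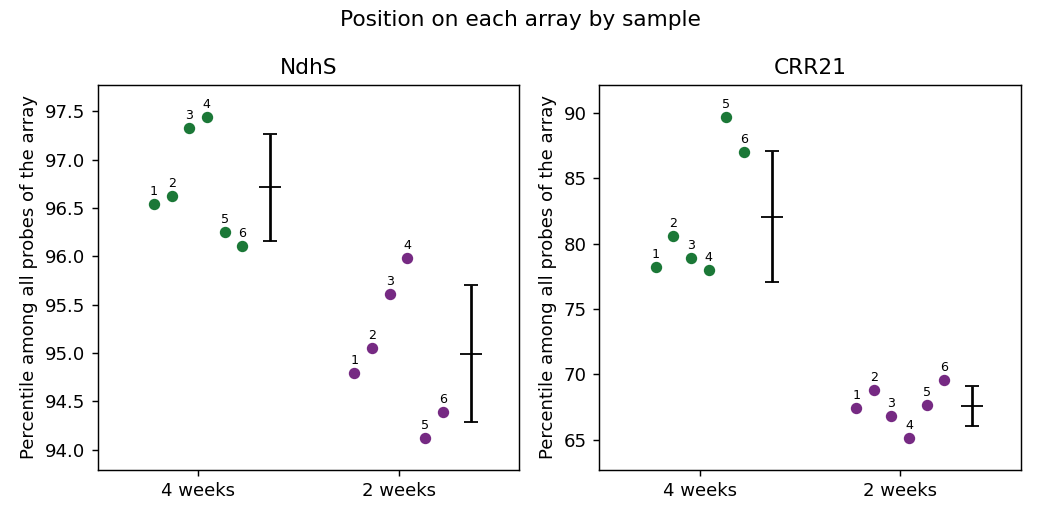
Percentile of NdhS and CRR21 among all probes of each array, 4 weeks on the left and 2 weeks on the right; points carry the replicate number, the bar is the mean ± SD of 6 samples, and the vertical axes do not start at 0. NdhS moves within the range from 94.1 to 97.4, while CRR21 lies at 78.0 or above at 4 weeks and at 69.6 or below at 2 weeks.

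To compare the ages across the array, the arrays were brought to a common distribution by quantile normalization. It sets each value by its position on its own array, so the direction of the normalized values follows from the percentiles above. NdhS then had a normalized intensity of 2.97 ± 0.622 at 4 weeks and 1.94 ± 0.237 at 2 weeks (SD, n = 6 each), a log2 difference of 0.60 (SE 0.15), or 1.51-fold higher. CRR21 had 0.729 ± 0.196 at 4 weeks and 0.427 ± 0.0192 at 2 weeks, a log2 difference of 0.73 (SE 0.16), or 1.66-fold higher. Over all 2961 probes and genes tested, the median log2 difference was 0.10, and 64.7% of them had a smaller or more negative difference than NdhS and 68.2% than CRR21. The ages did not overlap for either gene, and 24% of all tested features were likewise higher without overlap.

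Scaling moved the 2 genes differently. The log2 difference of NdhS was 0.78 (SE 0.12) in the deposited values, 1.08 (SE 0.13) after cyclic loess between arrays, and -0.92 (SE 0.12) after centring each array on the median of its positive values. For CRR21 the log2 difference was 2.23 (SE 0.16) in the deposited values, 0.88 (SE 0.16) after cyclic loess and 0.53 (SE 0.16) after median centring. After median centring neither gene's ages overlapped, NdhS being lower at 4 weeks, as were 25.2% of features, and CRR21 higher, as were 22.8%. The median over all features was 1.82 in the deposited values, 0.08 after cyclic loess and 0.14 after median centring. Relative to that median NdhS was therefore at -1.04 in the deposited values and at -1.06 after median centring, but at 0.50 after quantile normalization and 1.0 after cyclic loess. CRR21 was above it under each of the 4, by 0.41 in the deposited values, 0.39 after median centring, 0.64 after quantile normalization and 0.81 after cyclic loess.

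Features of similar brightness were compared in bands of 10% of the tested features, by mean level over all samples. NdhS falls in the brightest band, whose 297 features had a median log2 difference of 0.04 after quantile normalization, 0.46 in the deposited values, 0.58 after cyclic loess and -1.25 after median centring. NdhS was above that median under each of these scalings. CRR21 falls in the band from 70% to 80% counted from the dimmest, whose 296 features had medians of 0.10 after quantile normalization, 1.56 in the deposited values, 0.21 after cyclic loess and -0.14 after median centring, and CRR21 was above it in each. Both genes lay within the middle 50% of their band under each of the 4 scalings. After quantile normalization the quartiles were -1.49 and 1.20 in the band of NdhS, and -0.82 and 0.86 in that of CRR21.

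**Figure D3:**
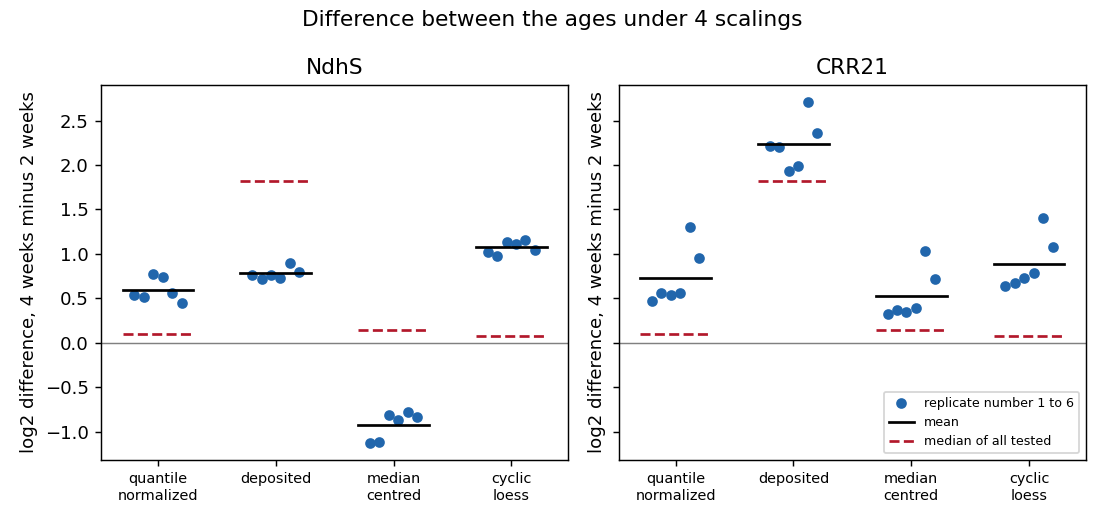
Log2 difference, 4 weeks minus 2 weeks, of NdhS and CRR21 under 4 scalings; points are replicate numbers 1 to 6 from left to right, the black line is their mean and the dashed line the median of all tested features. CRR21 lies above 0 throughout, and NdhS lies below 0 after median centring, with a mean of -0.92.

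By replicate number, the normalized log2 difference of NdhS ran from 0.45 in number 6 to 0.78 in number 3. That of CRR21 ran from 0.48 in number 1 to 0.56 in number 4 among numbers 1 to 4, and was 1.31 in number 5 and 0.96 in number 6. Without numbers 5 and 6 of both ages, left out after the values were seen, the difference of CRR21 was 0.53 and that of NdhS 0.64. Without numbers 3 and 4 it was 0.82 for CRR21 and 0.52 for NdhS.

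Within an age, the deviations of the genes from their age mean went with the replicate number. For NdhS, samples 3 and 4 were the highest and samples 5 and 6 the lowest at both ages, and the 6 deviations at 4 weeks correlated with those of the same numbers at 2 weeks with a Pearson's r of 0.97. After median centring that r was 0.57. For CRR21 it was 0.51 after quantile normalization and 0.81 after median centring. The deviations of the genes had opposite signs in 9 of 12 samples after quantile normalization, and their r over the 12 deviations was -0.67, -0.56 in the deposited values, -0.65 after cyclic loess and -0.43 after median centring. These are descriptions. The points share their arrays and the scaling, and adjacent numbers may not be independent. The mean gap between adjacent numbers of NdhS was 0.06 against a range of 0.69 at 4 weeks, and 0.08 against 0.46 at 2 weeks. That of CRR21 was 0.15 against 0.85 at 4 weeks, and 0.07 against 0.19 at 2 weeks.

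**Figure D4:**
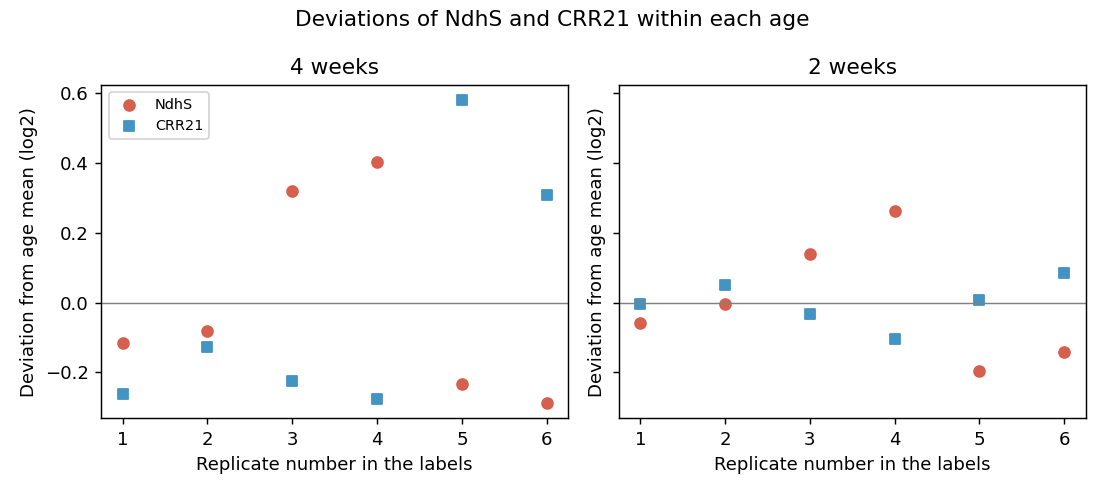
Deviation of normalized log2 intensity from the mean of the age, by replicate number, for NdhS (circles) and CRR21 (squares), at 4 weeks on the left and 2 weeks on the right. NdhS is highest in numbers 3 and 4 and lowest in numbers 5 and 6 at both ages, and CRR21 is highest in numbers 5 and 6 at 4 weeks.

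Other genes of the complex and its surroundings were taken from 6 lists of 98 loci, covering NDH subunits, NDH assembly factors and its links to photosystem I, plastid RNA editing, ferredoxin and cyclic electron flow, photosystem I, and the cytochrome b6f complex. Single-gene probes reached 8 of them besides NdhS and CRR21, and 6 loci were reached solely by probes shared with other genes and were left unnamed. Of the 8, 4 passed the filter on low values and were tested with limma, with Benjamini-Hochberg adjustment over all 2961 features. Of these 4, 0 rose, 2 fell and 2 did not pass, with a median log2 difference of -0.85. Across the array 33.6% of features were called higher and 31.1% lower at an adjusted p below 0.05.

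Cpn60beta4, a chaperonin subunit needed to fold the NdhH subunit, had a normalized intensity of 0.295 ± 0.113 at 4 weeks and 0.199 ± 0.0833 at 2 weeks (SD, n = 6 each). Its log2 difference was 0.60 (SE 0.32, adjusted p = 0.122 in limma), with the ages overlapping and the 4-week sample higher in 5 of 6 numbers. A limma fit with a replicate block called it higher (adjusted p = 0.0306), in a fit that called 35.2% of all features higher, and with adjacent numbers averaged the limma adjusted p was 0.301. It was also called higher after median centring, at 0.99 (limma adjusted p = 0.0319), and in the deposited values, at 2.70 (limma adjusted p = 1.54e-05), but not after cyclic loess, at 0.62 (limma adjusted p = 0.17). PIFI, which takes part in NDH-dependent electron flow, had nearly equal means, 0.708 ± 0.0535 at 4 weeks and 0.699 ± 0.0531 at 2 weeks, with a log2 difference of 0.02 (SE 0.10, limma adjusted p = 0.88). PIFI changed sign with the scaling, at -0.44 after median centring (limma adjusted p = 0.00416) and 1.26 in the deposited values (limma adjusted p = 3.4e-07). Median centring called 33% of all features higher and 31.1% lower, and the deposited values 75.7% higher and 11% lower.

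AT3G22150, from the editing list, had a normalized intensity of 0.0824 ± 0.0202 at 4 weeks and 0.271 ± 0.0597 at 2 weeks (SD, n = 6 each), and fell by 1.73 on the log2 scale (SE 0.19, limma adjusted p = 6e-06). Its ages did not overlap after quantile normalization, where 23.7% of all features were lower without overlap, but in the deposited values its difference was 0.34 (limma adjusted p = 0.157). This gene and CRR21 are the members of the editing list that passed the filter, and their normalized values went in opposite directions. PSAN, a subunit of photosystem I, to which NDH attaches, fell by 2.15 (SE 0.17, limma adjusted p = 2.22e-07). The limma adjusted p with adjacent numbers averaged was 0.0025 for AT3G22150 and 0.000282 for PSAN. That fit called 751 of 2961 features higher and 756 lower. The 3 further genes named for a photosystem or the light-harvesting antenna counted 0 higher, 2 lower and 1, PSBW, that did not pass. The same shares of all features apply, 33.6% higher and 31.1% lower. The 2 lower were PSBY, at -3.13 (SE 0.62, limma adjusted p = 0.000729), and LHB1B2, at -1.43 (SE 0.16, limma adjusted p = 5.6e-06). With adjacent numbers averaged the limma adjusted p was 0.0234 for PSBY and 0.00286 for LHB1B2. PSBY was lowest in numbers 3 and 4 at both ages, and without them its difference was -2.63. LHB1B2 was at -0.61 after cyclic loess, with the ages overlapping (limma adjusted p = 0.0188). After median centring LHB1B2 was at -3.56 (limma adjusted p = 5.82e-09). PSBW, a photosystem II subunit, had a log2 difference of 0.56 (limma adjusted p = 0.109). It was called higher with the replicate block (limma adjusted p = 0.00709), but not with adjacent numbers averaged (limma adjusted p = 0.29). PSBW was also called higher when numbers 5 and 6 were left out, with a difference of 0.74 (limma adjusted p = 0.00119). Its call depended on the scaling. Cyclic loess called PSBW higher, with a difference of 1.11 (limma adjusted p = 0.00738). Median centring called it lower, with -1.82 (limma adjusted p = 8.54e-05). The unnormalized intensities gave no call, with a difference of -0.12 (limma adjusted p = 0.698).

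**Figure D5:**
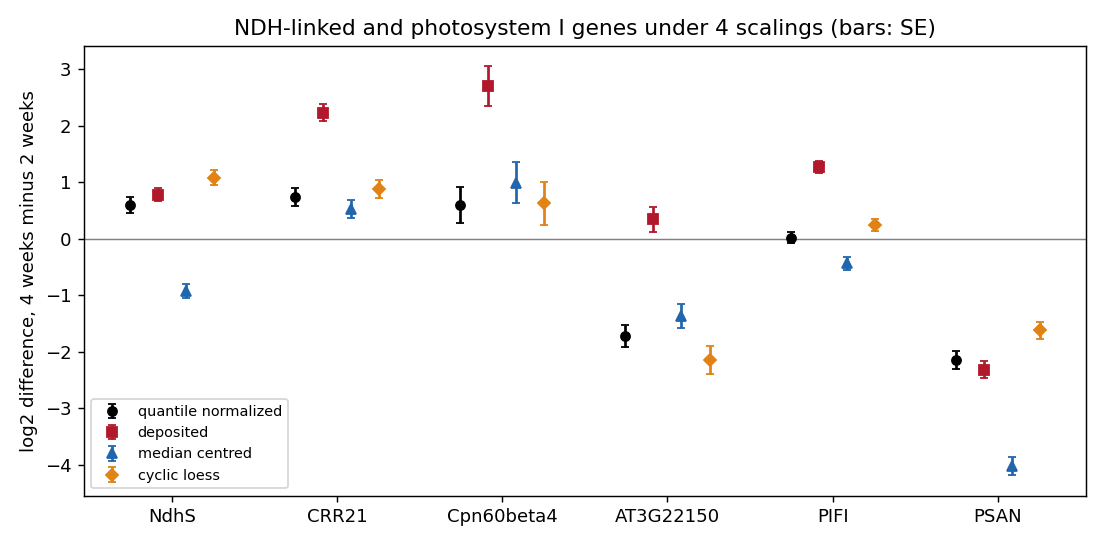
Log2 difference, 4 weeks minus 2 weeks, of NdhS, CRR21 and the 4 other tested list genes under 4 scalings; points are the estimates of the fit over all features and bars their SE. CRR21 and Cpn60beta4 lie above 0 and PSAN below 0 under each scaling, while NdhS, AT3G22150 and PIFI change sign with it.

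The remaining 4 list genes lay too low to test. The floor of 0.0152 applies to normalized values, not to deposited ones. NdhN, a nuclear-encoded subunit of the stromal arm, was not above the floor in any sample at 4 weeks. At 2 weeks NdhN was not above it in 3 of 6 samples. The other 3 had normalized intensities of 0.0875, 0.0505 and 0.226, from deposited intensities of 0.0140, 0.00868 and 0.0938. OTP85, an editing factor for the ndhD transcript, was not above the floor in any sample at 4 weeks or in 4 of 6 at 2 weeks. In sample 1 at 4 weeks its deposited intensity was 0.0164 and its normalized intensity 0.0103, so that count depends on the normalization. CRR41, an assembly factor of the stromal arm, and AT3G22690, from the editing list, were listed at 0 in all 12 samples, as were 124 of the 3439 probes. NdhS was the 1 listed NDH subunit with a single-gene probe above the floor on every array.

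Genes with the most similar profile were sought among 453 other single-gene probes above the floor on all 12 arrays, by Pearson's r over the 12 normalized log2 values. For NdhS the highest were AT4G18180 at 0.97, AT2G46220 at 0.97, AT1G73430 at 0.96, AT4G22650 at 0.96 and AT5G40030 at 0.96. For CRR21 they were AT3G17550 at 0.96, AT3G59300 at 0.94, AT1G01080 at 0.94, AT1G74730 at 0.94 and AT5G03370 at 0.93. Between NdhS and CRR21 it was 0.47.

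With the age means taken out, the 5 nearest to NdhS were AT5G40030 at 0.95, AT4G22650 at 0.95, AT4G18180 at 0.92, AT3G20150 at 0.91 and AT2G46220 at 0.91. Of these, AT3G20150 was lower at 4 weeks, with a log2 difference of -0.74, and the other 4 were higher, by 1.0 to 1.49. The 5 nearest to CRR21 were AT3G17550 at 0.91, AT1G01080 at 0.90, AT1G49870 at 0.89, AT5G14910 at 0.89 and AT1G73740 at 0.89. Of these, AT1G49870 was lower at 4 weeks, at -0.72. No gene was among the 5 nearest of both NdhS and CRR21. The points share arrays, age and scaling, and these r values describe the 12 samples only.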

How the data were processed

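The authors deposited 1 intensity per probe and sample. The values are linear, and their background correction and scaling are not described in the sources used here. Gene names came from the annotation table of the array, and 690 of 692 single-gene probes matched the RefSeq gene table of TAIR10.1, used for names and chromosomes. No sequence is shown.

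Intensities were quantile normalized, set to a floor at percentile 1 of positive values (0.0152) and put on the log2 scale. Features above the floor on at least 6 of 12 arrays were tested (2961, with 477 left out), with probes of the same gene averaged. limma 3.58.1 in R 4.3.3 (lmFit, eBayes) compared 4 with 2 weeks, two-sided, at a Benjamini-Hochberg adjusted p below 0.05. It was tested on simulated data with independent noise for each array. That simulation cannot show how the fit behaves where samples deviate together. SEs are limma's. The number of arrays limits the precision.

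Same-numbered samples of both ages deviated together (r from 0.16 to 0.44 across features). All 12 samples were best matched at the other age by the sample of their own number. Adjacent numbers also did so at 4 weeks (0.41 to 0.50) and less at 2 weeks (0.01 to 0.31). The labels do not state what the numbers mean. The main fit was therefore unpaired, and the replicate number entered it as a block only as an alternative setting.

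The genes, lists and averaging of adjacent numbers were chosen with earlier results of these data known. Named genes are all tested or floored list members and, for each of the 2 genes, the 5 with the highest r by either measure. The reference table holds no gene descriptions, so lists planned from descriptions used symbols and synonyms. No pentatricopeptide repeat list could be formed that way. The brightness bands were added after the values were seen.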

Additional observations from a re-analysis of the deposited data

How the results depend on the processing

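The difference of NdhS reversed to -0.92 after median centring and was 1.08 after cyclic loess, and that of CRR21 was 2.23 in the deposited values. Leaving out each replicate number in turn gave 0.56 to 0.63 for NdhS and 0.62 to 0.78 for CRR21. Replicate number as a block left both at 0.60 and 0.73. Calls over all features were 1914 (994 higher, 920 lower), 2028 with the replicate block, 1507 with adjacent numbers averaged, 1837 after cyclic loess and 2572 in the deposited values, with 2245 higher and 327 lower there. Among the 7 other list genes tested, counting those found by name, 4 were called, all lower. The count was 7 after median centring (1 higher, 6 lower) and 6 with the replicate block (2 higher, 4 lower). Over all features, median centring called 978 of 2965 higher and 922 lower, and the block 1041 of 2961 higher and 987 lower. The list count was 5 in the deposited values (2 higher, 3 lower) and 5 after cyclic loess (1 higher, 4 lower). It was also 5 without numbers 5 and 6 (1 higher, 4 lower). Cyclic loess called 939 of 2966 features higher and 898 lower. Without numbers 5 and 6, 944 of 2961 features were called higher and 909 lower. With the dimmest 25% left out the list count was 3, all lower, but AT3G22150 was then not tested. That setting called 797 of 2220 features higher and 745 lower. AT3G22150 reversed to 0.34 in the deposited values. PIFI reversed to -0.44 after median centring, ran from -0.028 to 0.087 when each replicate number was left out (-0.024 without replicate 6), and was -0.091 without numbers 5 and 6, a setting added after the data were seen. The block moved the calls of Cpn60beta4 and PSBW and of none of the other 5. The causes were not tested. No signal over background is given, so the reading of low values is limited.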
